A study of Mus musculus with 24 samples.

Results

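Cytochrome P450 genes were read on bead arrays across the stages at which the mouse liver forms. The members were the target IDs (transcript targets on the array, named by gene) written as CYP, a family number, a subfamily letter and a gene number. The pattern matched 72 target IDs. The 4 bile acid and sterol enzymes Cyp7a1, Cyp7b1, Cyp8b1 and Cyp27a1 were left out, which gave 68 members of 31483 target IDs. Of the 68, 65 matched a RefSeq gene symbol and 2 matched a synonym (CYP2B20 is now Cyp2b10, and CYP3A41 is now Cyp3a41a). CYP4A12 matched several genes and kept its array name. Members were put in roles by the name of their subfamily alone. Subfamilies known mainly for drugs and other foreign compounds held 36 members, and those for fatty acids and eicosanoids held 17. The role of steroid hormone synthesis held 6, vitamin D 3, retinoic acid 2 and oxysterols 2. The remaining 2 (Cyp20a1 and Cyp2s1) were kept apart as others. Single members can act on other substrates, as Cyp2c70 does on bile acids.

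P450 enzymes hold a heme group and add oxygen to small molecules. Those of the endoplasmic reticulum receive electrons from the reductase Por, and the mitochondrial ones receive them through ferredoxin. The adult liver is the main site of drug-metabolizing P450s, and many of them are switched on only around or after birth. Other family members work in the embryo before a liver exists, above all the Cyp26 enzymes, which break down retinoic acid and so limit where this signal acts.

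The samples were wild-type and Cirh1a+/- mice of strain C57BL/6 JAX. The Cirh1a+/- animals carry 1 allele disrupted by a β-Geo gene trap, and both genotypes came from littermates. The stages, in embryonic days (E), were E8.5 and E9.5 for whole embryos and E11.5 and E12.5 for livers, with 3 arrays per genotype and stage and 24 arrays in all. Cirh1a encodes cirhin, a nucleolar protein needed to make the small ribosomal subunit. The labels number the replicates without saying whether each was a single animal or a pool, so the p-values measure the spread between these arrays, which may be partly technical.

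The values are log2 intensities normalized by the authors. Arrays of E8.5 and of E12.5 share 1 distribution of values (largest percentile gap 0.00109 log2), whereas their gaps to the E9.5 and E11.5 arrays reach 4.44 and 4.87. Levels were therefore tested between stages for E12.5 against E8.5 only. Across all 4 stages they were set side by side as percentiles, the share of the 25206 target IDs with values on all arrays that read lower on the same array. Low values start near 2 at E8.5 and E12.5 and near 6 at E9.5 and E11.5, so differences at low level are compressed at the latter stages. Values were given on all 24 arrays for 63 members, and at E9.5 and E11.5 alone for 5 (CYP2B20, CYP2C66, CYP3A41, CYP4A10 and CYP4A12).

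The tissue labels were checked against 10 hepatocyte marker genes. Of these, 8 read above background in the livers of both stages, against 7 in the E8.5 and 6 in the E9.5 whole embryos. The count alone thus differed little between livers and embryos. The mean over the 9 with values on all arrays, Fgb included, lay at log2 11.96 to 12.18 at E11.5 and 11.63 to 11.98 at E12.5. The mean percentile of these 9 was 88.9 to 91.6 at E11.5 and 88.6 to 93.1 at E12.5. In embryos it was 69.7 to 83.1 at E8.5 and 62.7 to 71.5 at E9.5. Fgb, a fibrinogen chain, was at background at every stage, and Alb (albumin) was at log2 6.79 to 7.06 at E11.5, about the background limit of 7.03, with no value at E12.5. Sex-linked transcripts separated the genotypes at E8.5. There Xist, transcribed from the inactive X chromosome, was at log2 1.99 to 2.27 in wild type and 8.62 to 10.37 in heterozygotes, and the mean of 4 Y-linked genes was at 4.93 to 5.04 and 1.71 to 2.03. At E9.5 Xist read high on all 6 arrays, at 10.12 to 11.13 in wild type and 9.34 to 10.14 in heterozygotes. The Y-linked mean was high on these arrays too, at 7.85 to 8.45 and 8.48 to 8.63. Whether each of these samples held embryos of both sexes was not tested. At E11.5 both genotypes held arrays of low and of high Xist (6.65 to 10.06 and 6.79 to 10.06). At E12.5 the heterozygote replicate 1 stood apart from the other 5 arrays, with Xist at 7.90 against 1.81 to 2.19. Sex and genotype cannot be told apart at E8.5.

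Promoters are shown for 3 members whose levels separated embryos from livers: Cyp2c70 and Cyp4v3, above background in both livers and neither embryo stage, and Cyp26a1, above background at both embryo stages and in neither liver. Each is 300 bases of the RefSeq annotation of GRCm38.p6, from 250 bases before to 50 after the start site, written 5′ to 3′ on the gene's strand. Capitals mark matches, on either strand, to the 5 short motifs searched. These were AGGTCA and AGTTCA, bound by nuclear receptors such as the retinoic acid receptors, the aryl hydrocarbon receptor core GCGTG, the HNF1 core GTTAAT and AAAGTCCA, part of the site of the liver factor HNF4.
Cyp2c70, chr19:40187237-40187536, minus strand: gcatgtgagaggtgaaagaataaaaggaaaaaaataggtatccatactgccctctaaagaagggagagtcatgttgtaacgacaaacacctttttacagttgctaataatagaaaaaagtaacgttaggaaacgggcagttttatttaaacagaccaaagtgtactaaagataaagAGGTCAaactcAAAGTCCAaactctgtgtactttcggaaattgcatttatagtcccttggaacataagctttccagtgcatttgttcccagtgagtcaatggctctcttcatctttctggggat
Cyp4v3, chr8:45333114-45333413, minus strand: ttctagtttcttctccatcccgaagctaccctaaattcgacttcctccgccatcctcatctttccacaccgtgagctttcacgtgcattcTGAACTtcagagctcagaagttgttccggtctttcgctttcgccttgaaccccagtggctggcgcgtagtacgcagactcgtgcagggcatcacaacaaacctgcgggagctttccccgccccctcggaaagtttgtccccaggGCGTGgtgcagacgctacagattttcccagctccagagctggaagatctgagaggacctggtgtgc
Cyp26a1, chr19:37697558-37697857, plus strand: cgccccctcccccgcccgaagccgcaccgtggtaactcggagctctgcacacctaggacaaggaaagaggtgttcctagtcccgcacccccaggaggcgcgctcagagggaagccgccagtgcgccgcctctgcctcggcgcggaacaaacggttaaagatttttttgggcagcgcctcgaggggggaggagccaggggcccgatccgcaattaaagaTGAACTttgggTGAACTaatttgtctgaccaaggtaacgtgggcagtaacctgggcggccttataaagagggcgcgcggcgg

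In the Cyp2c70 promoter, AGGTCA started 74 bases and AAAGTCCA 63 bases before the start site (positions -74 and -63), in the orientation of the gene. AAAGTCCA was found in 1.25% and AGGTCA in 16.3% of the 32851 promoters of the table. AAAGTCCA was in 1 of 10 promoters of members higher at E12.5 than at E8.5 and 1 of 7 promoters of those lower. It was in 4 of 45 promoters of the other members. Promoters were found for 10 of the 11 higher and 7 of the 11 lower members. Some members had several, and that of Cyp2b10 was counted for both CYP2B10 and CYP2B20. The promoter of Cyp3a11, at background at every stage, held both AAAGTCCA and AGGTCA too. The Cyp4v3 promoter held AGTTCA on the opposite strand at -160, a motif of 14.0% of promoters, and GCGTG at -16, a motif of 32.4%. The Cyp26a1 promoter held AGTTCA on the opposite strand at both -32 and -21, with 5 bases between the copies. This spaced repeat, searched after the sequence had been seen, was found in 8 of the 32851 promoters (0.0244%), and among the 62 promoters of 53 members in Cyp26a1 alone. Cyp26a1 is known as a gene that retinoic acid receptors switch on. GTTAAT was in 7.10% of all promoters and in none of these 3. A match of letters is a description of the window and not evidence of binding.

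Most members were at background. A target ID was called on at a stage when its mean percentile over the 6 arrays was above the 95th percentile of the olfactory receptor target IDs, genes of the nose with no known role in these tissues. In order of stage that limit was the percentile 55.9, 49.8, 56.5 and 56.8, and by construction 5% of olfactory receptors lie above it. By this rule 17 of 63 members were on at E8.5 (27.0%), 14 of 68 at E9.5 (20.6%), 15 of 68 at E11.5 (22.1%) and 15 of 63 at E12.5 (23.8%). Of all target IDs, 41.4%, 49.5%, 41.8% and 40.9% were on at these stages. At 1 stage or more 30 members were on, and 38 were on at none. Of the 63 members with values on all arrays, 33 (52.4%) were on at no stage, against 43.0% of all target IDs.

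The set of members that were on differed between neighbouring stages. Of the 63 with all values, 6 (9.52%) were on at all 4 stages, against 30.8% of all target IDs. Of the 15 members on at E12.5, 5 (33.3%) were off at E11.5, against 10.6% of all target IDs on at E12.5, and 5 of the 15 on at E11.5 were off at E12.5, against 12.8%. Of the 17 on at E8.5, 7 (41.2%) were off at E9.5, against 8.70%. These shares come with no test, and the target IDs they are set against were not matched to the members in level. Some members that were on lay near the limit, such as Cyp2d10 at 57.0 at E8.5. The neighbouring stages compared here also do not share a distribution of values. Per stage, 2 to 6 members were above the 75th percentile.

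**Figure D1:**
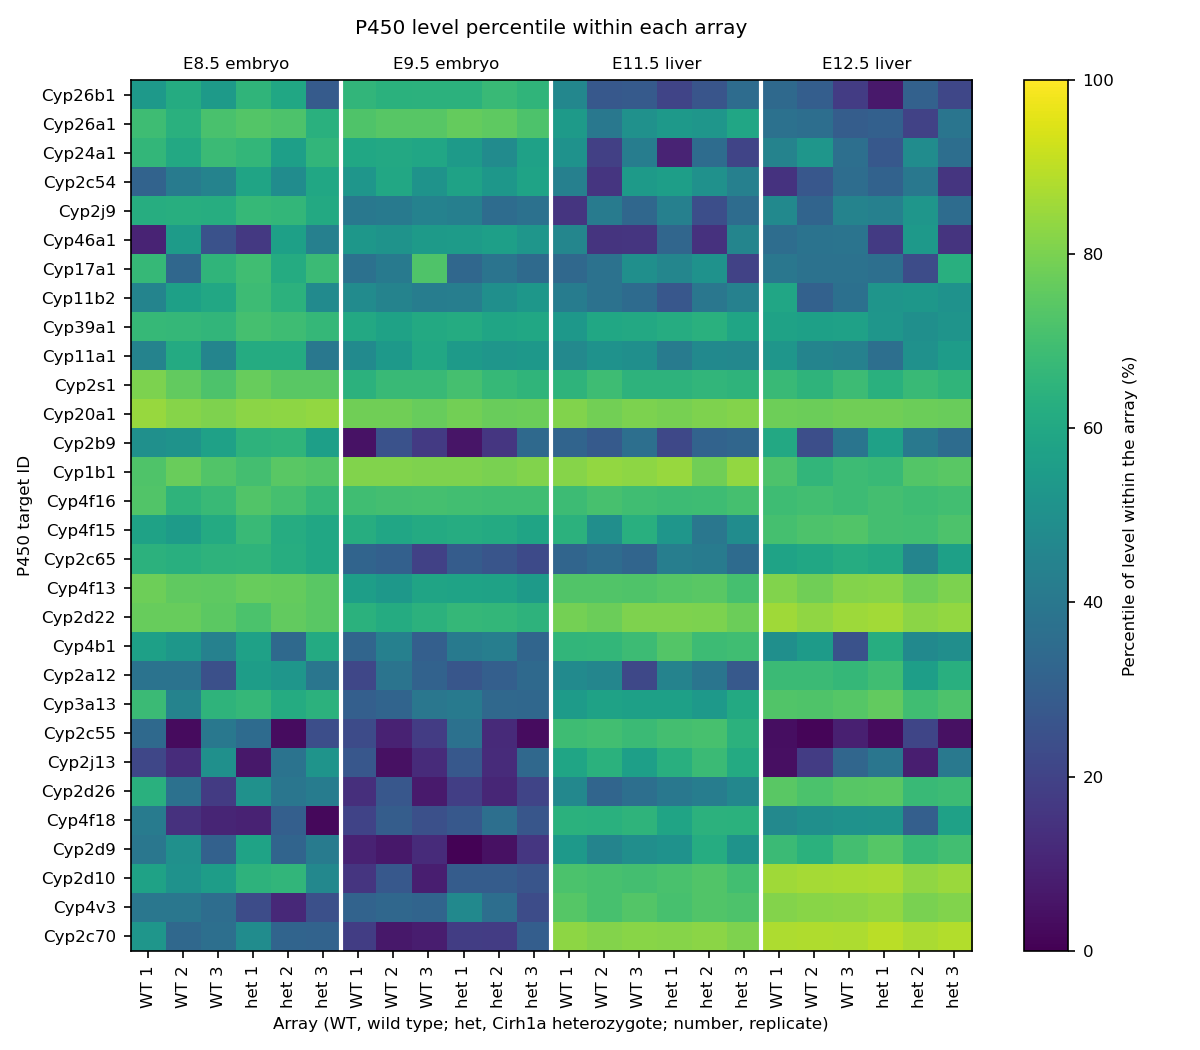
Level percentile within each array (colour, 0 to 100%) for the 30 P450 members on at 1 stage or more, in rows, on the 24 arrays, in columns grouped by stage and genotype. Rows run from members higher in embryos (top, Cyp26b1 and Cyp26a1) to members higher in livers (bottom, Cyp4v3 and Cyp2c70), and the 6 members on throughout, such as Cyp20a1 and Cyp1b1, lie in between.

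Of the 36 members of the foreign-compound subfamilies, 12 were on at some stage and 24 at none. Values at every stage were given for 33 of the 36. Of all target IDs with values on all arrays, 43.0% were on at no stage. Cyp2c70, which in the mouse liver makes muricholic bile acids, was the highest member at E12.5. Its percentile in embryos was 39.3 at E8.5 (range 32.0 to 52.7) and 16.4 at E9.5 (6.5 to 29.7). In livers it was 82.0 at E11.5 (80.6 to 83.0) and 88.2 at E12.5 (87.2 to 89.8). The liver arrays thus lay above all 12 embryo arrays, and within each liver stage the 6 arrays differed by a few percentile points. On in both livers and neither embryo stage were Cyp2c70 and Cyp4v3, 3.17% of members against 1.43% of all target IDs.

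The Cyp2d enzymes, a drug- and steroid-hydroxylating subfamily of the liver, were on at E12.5 for 4 of 5 members, against 40.9% of all target IDs. Cyp2d10 was at percentiles 57.0 and 22.6 in the embryos of E8.5 and E9.5, and 71.0 and 85.9 in the livers. Cyp2d22, the mouse enzyme often set beside human CYP2D6, was on throughout, at 75.1, 64.6, 79.3 and 84.4. Cyp2d26 (71.8) and Cyp2d9 (68.7) were on at E12.5 alone, and at E11.5 they were at 40.9 and 52.1. The fifth, Cyp2d13, a transcribed pseudogene in the RefSeq table, was off at every stage, at 44.0 at E8.5 and 38.2 at E12.5. The 4 genes that were on neighbour each other in the genome. Members of this and other P450 clusters are similar in sequence, so a probe can read a relative, and the level of any single paralog is uncertain.

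The other foreign-compound members on at some stage gave mixed patterns. Cyp1b1, an enzyme of connective tissue and other cells outside the liver that is induced through the aryl hydrocarbon receptor, was on at all stages and was the highest member at E9.5 (80.8) and E11.5 (82.5). It was at 73.3 at E8.5 and 70.3 at E12.5. Cyp3a13, a relative of the main adult drug-metabolizing enzyme Cyp3a11, was at 61.7, 35.0, 56.9 and 72.8. Cyp2a12, a steroid hydroxylase of adult mouse liver, was on at E12.5 alone (65.2). Cyp2c65 was on at E8.5 (63.1) and, just inside the limit, at E12.5 (57.0). Cyp2b9 was on at E8.5 (57.6) and Cyp2c54 at E9.5 (55.4).

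Cyp2c55, an arachidonic acid hydroxylase known from the colon, was on in the E11.5 liver alone. Its percentile there was 68.6 (64.2 to 70.8), against 7.1 (1.4 to 21.1) in the E12.5 liver, 23.3 at E8.5 and 17.1 at E9.5. All 6 E11.5 arrays lay above all other arrays. Cyp2j13 was likewise at 62.0 at E11.5 and 23.9 at E12.5, while Cyp4b1, a fatty acid hydroxylase best known from the lung, was at 68.6 and 48.1. Cyp4f18, which hydroxylates leukotriene B4 in white blood cells, was at 63.1 and 47.8. These 4 were the members on at E11.5 alone, 6.35% of members against 0.909% of all target IDs. The E11.5 arrays were normalized apart from the E12.5 arrays, so the day of development and the array set cannot be told apart in this comparison.

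Several drug-metabolizing enzymes known from the adult liver were at background at every stage, and are named here after their values were seen, whereas Cyp2d10, Cyp2d22 and Cyp3a13 were on in both livers. In the E12.5 liver, the aryl hydrocarbon receptor targets Cyp1a1 and Cyp1a2 were at percentiles 37.5 and 30.8. The ethanol-oxidizing Cyp2e1 was at 45.2, and Cyp2c29 was at 23.0. Cyp3a11 was at 37.1, and Cyp3a16, a form known from fetal mouse liver, was at 32.0 at E12.5 and 47.7 at E11.5. All were below the limits of 56.5 and 56.8, as were all 5 members of the Cyp3a cluster at each stage with a value. Cyp3a44 was the member just outside the limit at E11.5 (55.6), next to Cyp3a13 just inside it (56.9). Of the 38 members on at no stage, 31 were below the limit on every array. A level at background on these arrays does not show that a transcript is absent.

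Among the 17 fatty acid and eicosanoid members, 8 were on at some stage and 9 at none. Values at every stage were given for 15 of the 17. Of all target IDs with values on all arrays, 43.0% were on at no stage. Cyp4v3, a fatty acid hydroxylase whose human counterpart CYP4V2 is mutated in Bietti crystalline dystrophy, was at percentiles 29.1 and 34.1 in the embryos, 72.2 in the E11.5 liver (70.7 to 73.7) and 81.8 in the E12.5 liver (79.7 to 83.7). Cyp4f13 and Cyp4f16 were on throughout, Cyp4f13 at 76.1, 56.4, 72.8 and 80.3, and Cyp4f16 at 69.3, 69.7, 69.5 and 69.3. Cyp4f15 was on at all stages but E11.5 (52.9). Cyp2j9, a form known from the brain, was on at E8.5 alone (63.5).

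The retinoic acid enzymes and the vitamin D enzyme Cyp24a1 were on in embryos and not in livers. Cyp26a1 was at percentile 68.8 at E8.5 (63.6 to 73.4) and 74.1 at E9.5 (72.2 to 76.5), against 51.8 at E11.5 (39.9 to 59.2) and 32.0 at E12.5 (19.7 to 38.8). All 12 embryo arrays lay above all 12 liver arrays. Cyp26b1 was at 65.2 at E9.5 (64.0 to 67.7), just outside the limit at E8.5 (54.0), and at 30.7 and 23.5 in the livers. Cyp24a1 inactivates vitamin D. It was on at E8.5 (63.9) and E9.5 (56.6) and at 29.7 and 40.9 in the livers. The vitamin D-activating enzymes Cyp2r1 and Cyp27b1 were on at no stage. In bulk tissue, fewer cells of a type and less RNA per cell cannot be told apart.

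Of the 6 steroid hormone members, 3 were on at a single embryo stage and none in the livers. Of all target IDs, 41.8% were on at E11.5 and 40.9% at E12.5. Cyp11a1, the enzyme that cuts the cholesterol side chain, was on at E9.5 (53.7), just inside the limit. Cyp11b2, the aldosterone synthase, was on at E8.5 (57.2) and was the member just outside the limit at E9.5 (46.9). Cyp17a1, which makes androgen precursors, was on at E8.5 (60.8, range 33.3 to 69.2). Aromatase (Cyp19a1), Cyp11b1 and Cyp21a1 were on at no stage. Of 5 markers of adrenal and gonadal cells, none was on at E8.5, E9.5 or E12.5 and 1 at E11.5.

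Of the oxysterol members, Cyp39a1, which acts on 24-hydroxycholesterol, was on at E8.5 (67.6), E9.5 (59.8) and E11.5 (59.5), and was just outside the limit at E12.5 (54.3). Cyp46a1, which makes 24-hydroxycholesterol in the brain, was on at E9.5 alone (53.8). Cyp20a1, an orphan enzyme, was the highest member at E8.5 (82.8) and was on throughout, at 77.8, 80.2 and 77.7 at the later stages. Cyp2s1, known from epithelia, was at 75.7, 67.2, 65.8 and 66.3. At E8.5 the member just inside the limit was Cyp2d10 (57.0).

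**Figure D2:**
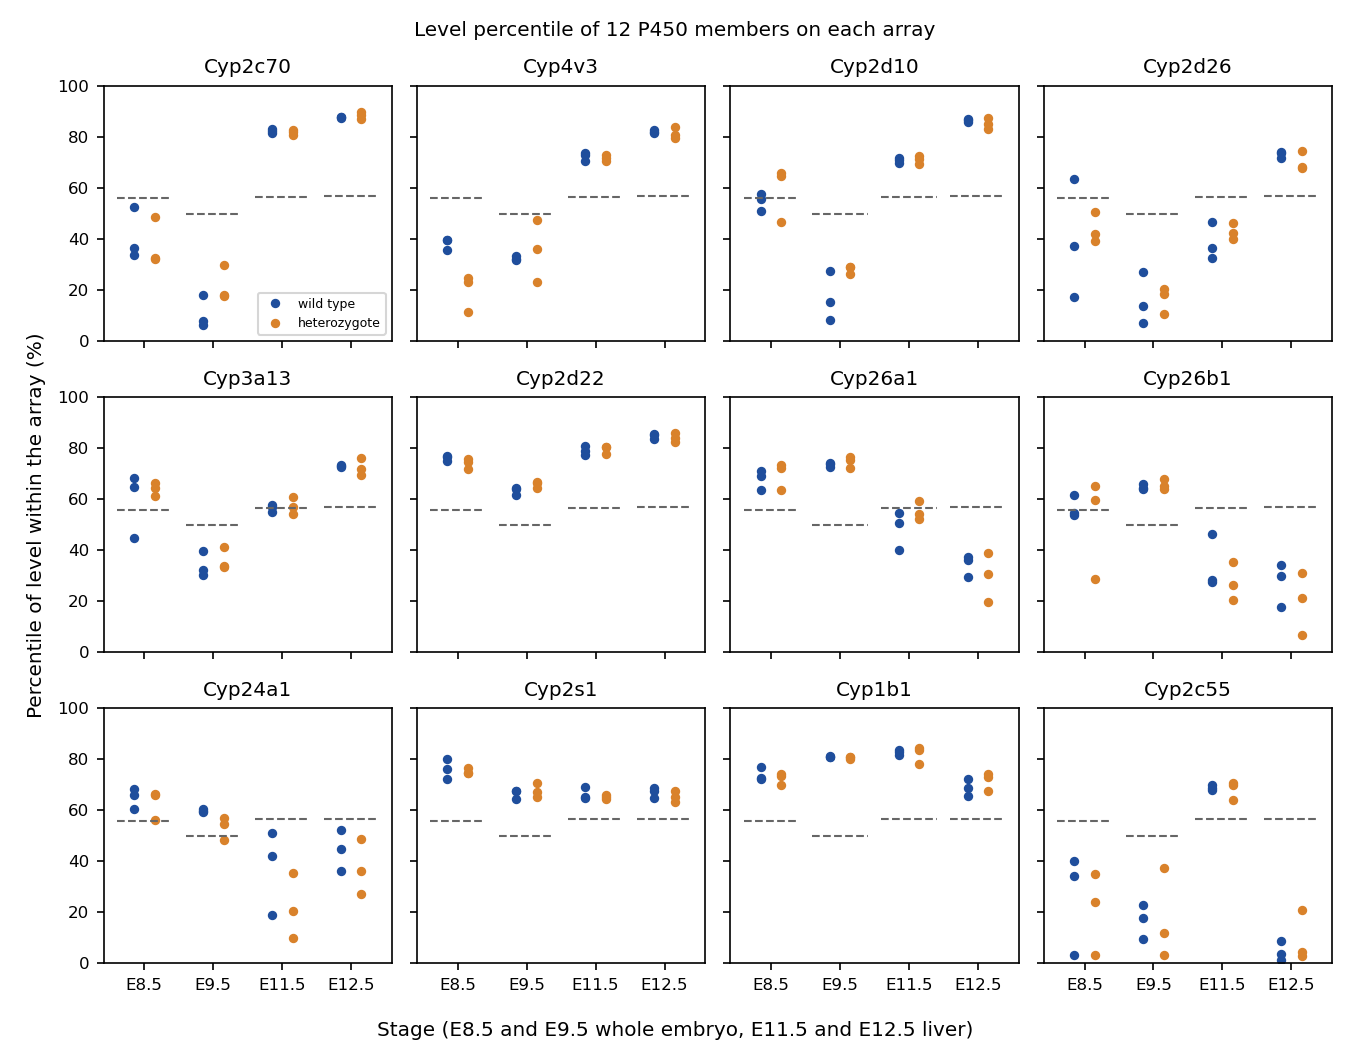
Percentile of level within the array (0 to 100%) for 12 P450 members at the 4 stages, 1 point per array (blue, wild type; orange, heterozygote; 3 each) and a dashed line at the background limit of the stage. Cyp2c70 and Cyp4v3 lie above the limit on all liver arrays and below it on all embryo arrays, Cyp26a1 lies above it on all embryo arrays, and Cyp2c55 lies above it at E11.5 alone.

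The E12.5 liver was then tested against the E8.5 embryo on log2 values with limma, averaged over both genotypes. Of 14626 target IDs tested, 10772 passed an adjusted p of 0.05 (73.6%), 29.3% higher and 44.3% lower in the liver, with a median difference of -0.25. Of the 63 members with values, 30 passed the filter on level in at least 1 of the stages and were tested. Of these, 11 were higher and 11 lower (73.3% in all), with a median of -0.29. The share of members that differed was thus near that of all target IDs. The groups did not overlap for 15 of the 30 members, against 57.3% of all target IDs. Stage, tissue and any difference in array handling cannot be told apart here. At E8.5, 198 of the 3962 target IDs that were high at every other stage lay below the median. The like count was 0 of 3640 at E9.5, 0 of 3459 at E11.5 and 0 of 3612 at E12.5. No member was among the 198, and the cause was not tested.

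Cyp2c70 differed most. Its log2 level at E8.5 was 2.81, 2.23 and 2.30 in wild type and 2.65, 2.20 and 2.19 in heterozygotes, all at background. At E12.5 it read 8.49, 8.58 and 8.55 in wild type and 9.01, 8.40 and 8.71 in heterozygotes. The difference was 6.23 (SE 0.145, limma adjusted p = 1.2e-11), with no overlap. Set against the background limit of log2 3.08, the E12.5 level was at least 46.5-fold higher.

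Cyp4v3 differed by 5.12 (SE 0.136, limma adjusted p = 3.2e-11), with its E8.5 level at background. At E8.5 it read 2.37, 2.37 and 2.27 in wild type and 2.01, 1.75 and 2.03 in heterozygotes. Its E12.5 levels were 7.21, 7.33 and 7.42 in wild type and 7.66, 6.83 and 7.07 in heterozygotes. All 12 arrays fell into separate ranges by stage, and the liver level was at least 18.0-fold above the E8.5 limit.

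All 4 tested Cyp2d members rose. Cyp2d10 read 3.10, 2.75 and 2.96 in wild type and 3.81, 3.98 and 2.58 in heterozygotes at E8.5. The E12.5 livers gave 8.11, 8.27 and 8.36 in wild type and 8.46, 7.57 and 7.93 in heterozygotes, a difference of 4.92 (SE 0.238), or 30.3-fold. That fold rests on an E8.5 mean of 3.20, just inside the limit of 3.08, with 3 of the 6 arrays above it. Cyp2d26 read 3.64, 2.32 and 1.89 in wild type and 2.73, 2.36 and 2.43 in heterozygotes at E8.5. At E12.5 it read 5.67, 5.13 and 5.59 in wild type and 5.73, 4.33 and 4.44 in heterozygotes, a difference of 2.59 (SE 0.319), and at least 4.18-fold above the E8.5 limit. The groups did not overlap for either gene.

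Cyp2d9, a testosterone hydroxylase that is male-predominant in adult mouse liver, read 2.37, 2.72 and 2.17 in wild type and 3.12, 2.19 and 2.43 in heterozygotes at E8.5. Its E12.5 levels were 4.36, 3.68 and 4.80 in wild type and 5.50, 4.21 and 4.67 in heterozygotes, a difference of 2.04 (SE 0.265), and at least 2.74-fold above the E8.5 limit. The highest of these values was in heterozygote replicate 1, the E12.5 array with high Xist. The part of sex was not tested. Cyp2d22 read 6.22, 6.17 and 5.78 in wild type and 5.14, 5.99 and 5.73 in heterozygotes at E8.5. The E12.5 livers gave 8.05, 7.60 and 7.97 in wild type and 8.12, 7.40 and 7.67 in heterozygotes, a difference of 1.96 (SE 0.179), or 3.90-fold. The stages did not overlap for either gene.

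The other 5 members higher in the liver differed by less. Cyp3a13 rose by 1.69 (SE 0.315), Cyp4f15 by 1.62 (SE 0.193) and Cyp2a12 by 1.53 (SE 0.240), with no overlap between the stages. Cyp4f13 rose by 0.88 and Cyp4f18 by 0.79, both with overlap, and Cyp4f18 was below the background limit at both stages. In the wild-type arrays alone, which read low for Xist at both stages, 12 members were higher and 9 lower.

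**Figure D3:**
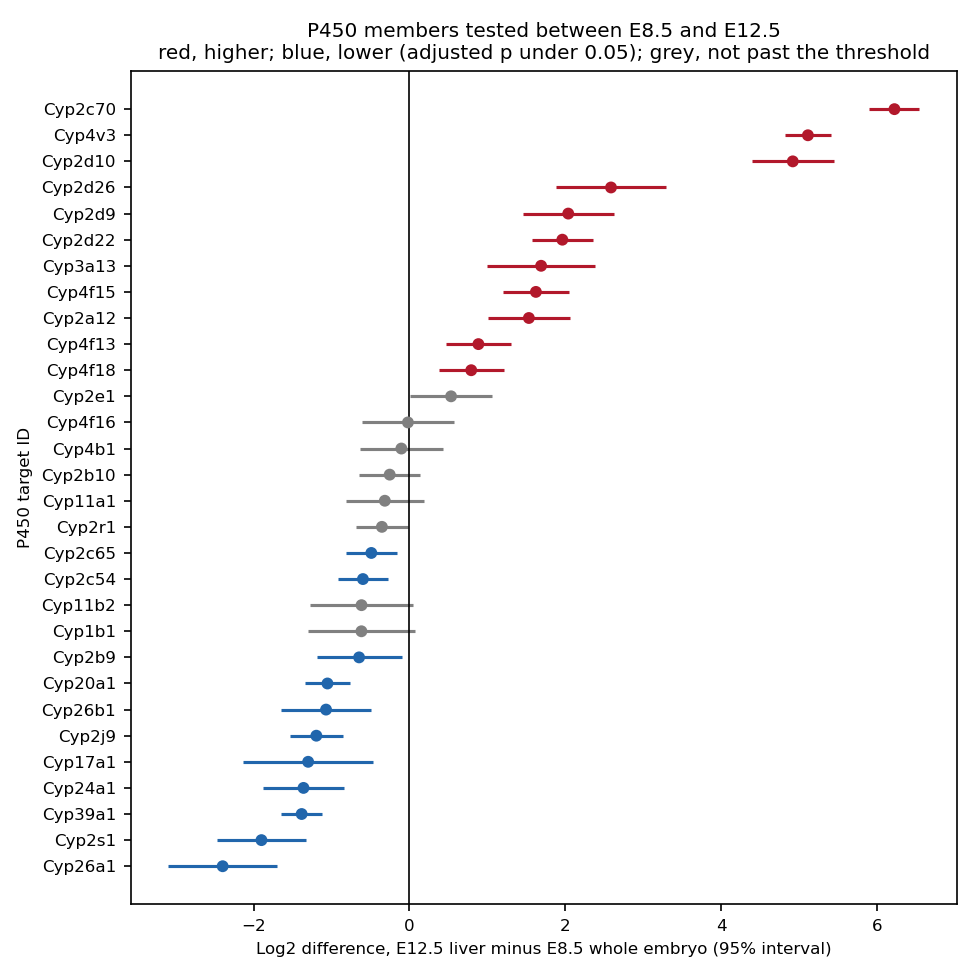
Log2 difference, E12.5 liver minus E8.5 whole embryo, with its 95% interval for the 30 P450 members tested with limma on 12 arrays. The 11 members in red were higher and the 11 in blue lower at an adjusted p of 0.05, from 6.23 for Cyp2c70 to -2.40 for Cyp26a1, and the 8 in grey did not pass.

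On the lower side, Cyp26a1 was on at E8.5 and at background at E12.5. It read 4.54, 3.64 and 5.02 in wild type and 5.49, 5.22 and 3.65 in heterozygotes at E8.5, and 2.31, 2.28 and 2.13 in wild type and 2.16, 1.93 and 2.35 in heterozygotes at E12.5. It fell by 2.40 on the log2 scale (SE 0.317, limma adjusted p = 3.2e-05), with no overlap. Against the E12.5 background limit of 3.14, the embryo level was at least 2.74-fold higher. Cyp26b1 fell by 1.07 (SE 0.259), with overlap, and its E8.5 mean was itself under the background limit.

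Cyp2s1 read 6.91, 6.06 and 5.23 in wild type and 6.18, 5.73 and 5.73 in heterozygotes at E8.5. At E12.5 it read 4.29, 3.84 and 4.50 in wild type and 3.63, 4.30 and 3.89 in heterozygotes, a fall of 1.90 (SE 0.258) with no overlap. It was on at both stages, and the embryo level was 3.73-fold the liver level.

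Cyp39a1 read 4.18, 4.07 and 3.98 in wild type and 4.87, 4.55 and 4.13 in heterozygotes at E8.5. Its E12.5 levels were 3.08, 3.05 and 3.07 in wild type and 2.81, 2.70 and 2.77 in heterozygotes. It fell by 1.38 (SE 0.118), with no overlap. This was the smallest standard error among the 30 members. Against the E12.5 background limit of 3.14, the embryo level was at least 2.24-fold higher.

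Cyp24a1 read 4.02, 3.30 and 4.42 in wild type and 4.05, 3.01 and 3.99 in heterozygotes at E8.5. The E12.5 livers gave 2.51, 2.80 and 2.29 in wild type and 2.09, 2.65 and 2.28 in heterozygotes, and it fell by 1.36 (SE 0.234) with no overlap. Cyp2j9 read 3.52, 3.54 and 3.49 in wild type and 4.14, 4.02 and 3.33 in heterozygotes at E8.5. At E12.5 it read 2.60, 2.19 and 2.51 in wild type and 2.48, 2.81 and 2.27 in heterozygotes, a fall of 1.20 (SE 0.154). Its stages did not overlap either. Against the E12.5 background limit of 3.14, the embryo level was at least 1.58-fold higher for Cyp24a1 and 1.45-fold for Cyp2j9.

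Cyp17a1 read 4.15, 2.22 and 3.92 in wild type and 4.59, 3.42 and 4.41 in heterozygotes at E8.5. Its E12.5 levels were 2.38, 2.33 and 2.32 in wild type and 2.30, 2.00 and 3.58 in heterozygotes. It fell by 1.30 (SE 0.378), and the stages overlapped through 1 low embryo array and 1 high liver array. In the wild-type arrays alone its difference of -1.09 did not pass (limma adjusted p = 0.0910, lowest 7.9e-04 over its alternatives). Over both genotypes and against the E12.5 background limit of 3.14, its embryo level was at least 1.57-fold higher.

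The remaining 4 members on the lower side were Cyp20a1, which fell by 1.05 (SE 0.133) with no overlap, Cyp2b9 (-0.65), Cyp2c54 (-0.60) and Cyp2c65 (-0.49), the last 3 with overlap. Cyp2c54 had its mean under the background limit at both stages. Cyp2b9 no longer passed without any of 7 single arrays. Its embryo level was at least 1.05-fold above the E12.5 background limit. Not past the threshold were Cyp1b1 (-0.62, 95% interval -1.31 to 0.07), Cyp11b2 (-0.62), Cyp2r1 (-0.35), Cyp11a1 (-0.32), Cyp2b10 (-0.25), Cyp4b1 (-0.10), Cyp4f16 (-0.02) and Cyp2e1 (0.53, 0.01 to 1.06).

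By role, as set by subfamily name, 7 of 13 tested foreign-compound members were higher and 3 lower. Those 7 included Cyp2c70, Cyp2d9 and Cyp2a12, described above as acting on bile acids or steroids. Of 7 fatty acid members, 4 were higher and 1 lower. Of the 10 tested members of all other roles, 7 were lower and none higher, while 3 did not pass. These counts stand against 29.3% higher and 44.3% lower of all target IDs. Target IDs read by several probes were more often higher in the liver over the whole array (41.2%) than those read by 1 probe (21.6%). Among members 4 of 13 with several probes and 7 of 17 with 1 probe were higher.

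Genes that serve or control P450s moved in both directions. Of 26 such partners and regulators, 19 were tested, and 12 were higher and 4 lower in the E12.5 liver, with a median of 0.72 against -0.25 for all target IDs. Of all target IDs tested, 29.3% were higher and 44.3% lower, which also holds beside the marker counts below. The nuclear receptors Nr1h4, which senses bile acids, and Nr1i2, which senses foreign compounds, rose by 4.68 (SE 0.236) and 3.29 (SE 0.133). The liver factor Hnf4a rose by 1.38 and the receptor Nr5a2 by 2.02. The reductase of cytochrome b5, Cyb5r3, rose by 3.40 and the heme-degrading Hmox1 by 2.75. Por, the electron donor of most P450s, fell by 1.00 (SE 0.0907), the aryl hydrocarbon receptor repressor Ahrr fell by 1.16, Pgrmc1 fell by 0.68 and Hmox2 fell by 0.35. Of the hepatocyte markers, 7 of 8 tested were higher, with a median of 4.15. Other cell type lists differed as well. All 4 megakaryocyte markers were higher (median 6.11), as were 5 of 7 tested erythroid markers (median 5.33) and all 5 macrophage markers (median 3.17), while all 5 cardiac markers (median -5.86) and 3 of 5 tested visceral endoderm markers were lower. The part of these cell types in the P450 differences was not tested.

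Genes of retinoic acid supply and response were mostly lower, like the Cyp26 members. Of 14, 10 were tested, and 7 were lower and 2 higher, with a median of -2.02, against 44.3% lower, 29.3% higher and a median of -0.25 for all target IDs. The retinoic acid-binding proteins Crabp1 and Crabp2 fell by 7.66 (SE 0.298) and 6.93 (SE 0.210), the synthetic enzyme Aldh1a2 fell by 4.35, and the receptor Rarg fell by 3.17. The receptor Rarb rose by 2.52 and the retinol carrier Rbp4 by 1.10. Of 10 further genes of steroid hormone synthesis and its control, 4 were tested, 2 were higher (Hsd17b1 by 1.34 and Mc2r by 0.91) and 1 was lower (Srd5a1, which fell by 1.76).

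Cirh1a heterozygotes were compared with wild type at each stage among the members above the median level. With limma, 0 of 23 members passed an adjusted p of 0.05 at E8.5, 0 of 15 at E9.5, 0 of 21 at E11.5 and 0 of 20 at E12.5. Of all target IDs tested, 0.0238%, 0.00635%, 0% and 0% passed at these stages. At an unadjusted p of 0.05, 2 members passed at each embryo stage and 1 at each liver stage, against 3.77%, 11.1%, 2.63% and 3.86% of all target IDs from E8.5 to E12.5. With the trended and robust form of limma the member counts were 0 as well. The precision differed by stage: the 95% interval of a typical tested member reached 0.77 to either side at E8.5, 0.57 at E12.5, 0.21 at E11.5 and 0.17 at E9.5, where low levels are compressed. A p above the threshold does not show that the genotypes were alike.

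**Figure D4:**
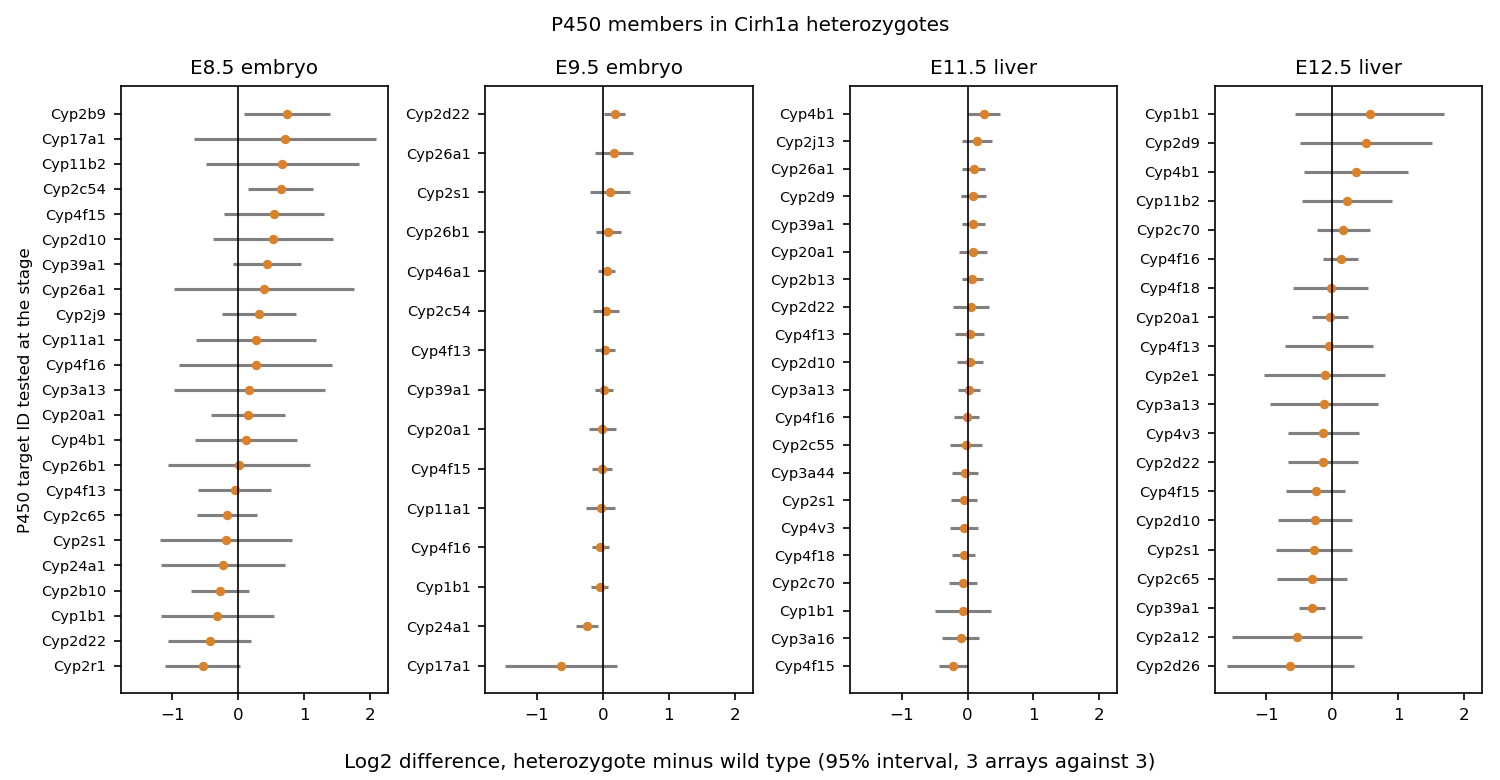
Log2 difference, heterozygote minus wild type, with its 95% interval for the P450 members tested at each stage (3 arrays against 3; 23, 15, 21 and 20 members). No member passed an adjusted p of 0.05, and the intervals are widest at E8.5 and narrowest at E9.5.

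At E8.5 the smallest p among members was that of Cyp2c54, whose mean was below the background limit of log2 3.08 at this stage. It read 2.19, 2.42 and 2.51 in wild type and 3.15, 2.65 and 3.25 in heterozygotes, a difference of 0.64 (SE 0.207, limma adjusted p = 1.00). The 3 heterozygote values lay above the wild-type values, as for 1 of the 23 members in all and for 6.98% of target IDs in either direction. Cyp2b9, known as female-predominant in adult mouse liver, read 2.71, 2.76 and 3.06 in wild type and 3.82, 3.92 and 3.00 in heterozygotes, a difference of 0.74 (SE 0.273) with overlap. Cyp2r1 read 3.39, 2.69 and 2.82 in wild type and 2.32, 2.69 and 2.26 in heterozygotes, a difference of -0.54 (SE 0.235). Its mean, too, was below the limit. The heterozygotes of this stage were also the arrays with high Xist, so sex and genotype cannot be told apart. The list mean of erythroid markers was at log2 5.69 to 10.12 in these heterozygotes and 9.08 to 9.93 in wild type. All 7 erythroid markers tested were lower in heterozygotes (median difference -0.83). None of them passed, and their part was not tested.

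At E9.5 Cyp24a1 read 6.99, 7.02 and 6.96 in wild type and 6.78, 6.59 and 6.87 in heterozygotes, a difference of -0.24 (SE 0.0742, limma adjusted p = 0.271). Cyp2d22 read 7.23, 7.09 and 7.25 in wild type and 7.43, 7.41 and 7.26 in heterozygotes, a difference of 0.18 (SE 0.0690, limma adjusted p = 0.380). In both genes the groups did not overlap, as for 17.6% of all target IDs tested at this stage. The list mean of hepatocyte markers was 8.74 to 9.47 in these heterozygotes against 8.44 to 8.49 in wild type, and that of visceral endoderm and yolk sac markers was 8.71 to 9.44 against 8.33 to 8.48. None of the 6 hepatocyte and 7 visceral endoderm markers tested passed, and their part was not tested.

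Cyp17a1 at E9.5 rested on a single array. It read 6.36, 6.43 and 8.12 in wild type and 6.30, 6.38 and 6.31 in heterozygotes, so wild-type replicate 3 stood apart from the other 5 arrays, and the difference was -0.64 (SE 0.379). On the same array Cyp11a1 was at its highest of the stage, at 7.01 against 6.58 to 6.77. The placental hormone gene Prl3d1, made by trophoblast giant cells, read 8.11 there against 6.32 to 6.72 on the other 5 arrays. Another gene of the placenta and decidua, Prl8a2, read 6.72 there and was highest in heterozygote replicate 2, at 8.69. The other 2 genes of that list did not stand out on the array: Tpbpa read 6.05 there and 6.25 in wild-type replicate 1, and Psg17 read 6.40 there and 6.52 in heterozygote replicates 1 and 2. The part of such cells in the Cyp17a1 value was not tested. Without this array Cyp17a1 lay below the median level and was not tested.

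At E11.5 Cyp4b1 read 7.27, 7.28 and 7.43 in wild type and 7.79, 7.43 and 7.50 in heterozygotes, a difference of 0.24 (SE 0.107). Cyp4f15 read 7.20, 6.91 and 7.17 in wild type and 6.94, 6.80 and 6.89 in heterozygotes, a difference of -0.21 (SE 0.0967). Cyp2j13 differed by 0.14 (SE 0.0992). The groups overlapped for all 21 members, whereas 8.19% of all target IDs did not overlap. For the members on in both livers, Cyp2c70 differed by -0.07 (SE 0.0935) at E11.5 and 0.16 (SE 0.164) at E12.5, and Cyp4v3 differed by -0.06 (SE 0.0946) and -0.14 (SE 0.221). The list mean of 5 cardiac markers was 7.29, 7.58 and 9.26 in the E11.5 heterozygote livers, highest in replicate 3, against 7.18 to 7.45 in wild type. Of 4 cardiac markers tested none passed (median difference 0.90), and their part was not tested.

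At E12.5 Cyp39a1 read 3.08, 3.05 and 3.07 in wild type and 2.81, 2.70 and 2.77 in heterozygotes, a difference of -0.31 (SE 0.0830, limma adjusted p = 0.993). It was the only member of 20 whose groups did not overlap, against 7.13% of all target IDs. Its mean lay below the background limit of log2 3.14 at this stage. At E8.5 its difference was 0.44 (SE 0.216) in the other direction. Cyp2d26 differed by -0.63 (SE 0.396), with heterozygote replicates 2 and 3 at 4.33 and 4.44 and replicate 1 at 5.73 within the wild-type range. Cyp2c65 differed by -0.31 (SE 0.218).

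Over the 4 stages together, 0 of 36 members passed in the joint limma fit (0% of 16402 target IDs), with 1 member at an unadjusted p of 0.05 (5.36% of target IDs). That member was Cyp2c54, with an average difference of 0.22 (SE 0.0831, limma adjusted p = 0.826), followed by Cyp4v3 (-0.13, SE 0.0782) and Cyp24a1 (-0.21, SE 0.126). Cyp2c54 was on at E9.5 alone. The 95% intervals of all 36 lay within 1 log2 unit of 0. A difference of the genotype effect between livers and whole embryos passed for 0 of 36 members in limma, against 0.0061% of target IDs, with 4 members at an unadjusted p of 0.05 (4.87%). Without E8.5 wild type replicate 1, these fits called 51 target IDs for the average and 68 for the difference, in place of 0 and 1, and still 0 members. The partners and regulators, the retinoic acid genes and the steroid hormone genes also had 0 calls at each stage in these limma fits.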

How the data were processed

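Per the labels' protocols, total RNA from column kits was made into biotinylated cRNA for Illumina arrays. The deposited log2 values per target ID were normalized by the authors, and their software, background correction and array annotation build are not given in the sources used here. A further 48 value columns in 4 tables match no sample label and were not used; from them, the probe identifiers alone served to count probes. Detection calls were therefore replaced by the olfactory receptor limit.

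Tests were two-sided limma 3.58.1 fits in R 4.3.3 (lmFit and eBayes) on every target ID above the median level of its stage (of at least 1 stage in fits over stages), with Benjamini-Hochberg adjustment over all tested and a threshold of 0.05. The fit was tested on simulated data. The number of arrays limits the precision, and the smallest exact p of 3 against 3 arrays is 0.1. The members, lists, motifs and tests were chosen with earlier results of these data known.

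Named were the 6 highest members of each stage, every member on, those called between E8.5 and E12.5 (array values for the 6 largest each way), the 3 of smallest p per heterozygote comparison, and those next to the limit. Alternatives covered the level filter, normalization, moderation, replicate block, Y-linked covariate, probe number, genotype, the limit for on, and each array left out.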

Additional observations from a re-analysis of the deposited data

How the results depend on the processing

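The count of members called between heterozygotes and wild type was 0 under every alternative and with each array left out, at each stage, for the average and for liver minus embryo. For E12.5 against E8.5, the 11 higher members became 5 with a level above the 75th percentile and 7 among target IDs with 1 probe, and the 11 lower became 2 and 6; fewer members enter these fits by construction. Leaving out each array gave 11 to 13 higher and 9 to 13 lower. Of 411 values of the 22 called members, 399 kept their direction and call, 12 lost the call and none changed sign. Calls were lost for Cyp2a12 (1.02, limma adjusted p = 0.0688), Cyp26b1 (-1.16, 0.0537) and Cyp2c65 (-0.56, 0.0921) in heterozygotes alone, and for Cyp17a1 and Cyp2b9 (-0.28, 0.476) in wild type alone. Cyp2b9 also lost it without E8.5 wild type replicate 3, E8.5 heterozygote replicates 1 or 2, E12.5 wild type replicates 2 or 3, or E12.5 heterozygote replicates 2 or 3. Above the 99th percentile of olfactory receptors, 10 members were on at E8.5 and 9 at E9.5, against 17 and 14. With each array left out, 15 to 18 members were on at E8.5 and 14 to 15 at E12.5, and the counts of 14 (E9.5) and 15 (E11.5) did not move.

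The labels do not say whether same-numbered samples were paired, and the main fits used no pairing. Deviations of same-numbered arrays correlated at 0.0971 to 0.177 at E8.5 and -0.393 to -0.126 at E11.5, and 3 of 3 exceeded 0.1 at no stage. With 3 arrays per group these correlations cannot decide whether samples were paired. With the replicate block, 0 members were called between genotypes, and 11 were higher and 11 lower at E12.5. Over all target IDs, the E9.5 genotype count of 1 became 54 without heterozygote replicate 3, 18 with trended robust moderation and 14 above the 75th percentile, and was 0 without any wild-type replicate; the joint fit gave 290 at E8.5 and 40 at E12.5, against 3 and 0. Without E8.5 wild type replicate 1 the average gave 51 and liver minus embryo 68, against 0 and 1. The cause was not tested. Signal over background is not known per probe, so members near the limit have uncertain calls.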

Other observations

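The neighbouring P450 genes of the mouse genome differed between clusters in how many members were on. All 4 protein-coding members of the Cyp2d cluster were on at E12.5, and all 4 were higher there than at E8.5. In the Cyp2c cluster 7 of 11 members were on at no stage, 1 (Cyp2c70) was higher and 2 were lower. In the cluster of Cyp2a, Cyp2b, Cyp2f, Cyp2g and Cyp2s genes 8 of 11 members were on at no stage, and in the Cyp3a cluster 5 of 5. The 11 include CYP2B10 and CYP2B20, which are now the same gene. Among the members counted as on at no stage, CYP2B20, CYP2C66 and CYP3A41 had values at E9.5 and E11.5 alone. Of the 4 Cyp4f genes that lie together, 3 were on in a liver stage. Of all target IDs with values on all arrays 43.0% were on at no stage, and of all members with such values 52.4%. Of all target IDs 40.9% were on at E12.5, and of those tested 29.3% were higher and 44.3% lower there than at E8.5. The differences between clusters were not tested. Clusters were taken as runs of members with at most 10 protein-coding genes between neighbours, so that Cyp2d13, a transcribed pseudogene off at every stage, was not placed, and members of a cluster can share signal through similar sequence.

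Measured in percentile points, the spread between arrays was larger for members at background. The spread of log2 values was not compared in this way. At E8.5 the 6 arrays spanned a median of 27.7 percentile points for the 46 members off and 8.11 for the 17 on. At E12.5 they spanned 27.3 points for the 48 members off and 4.19 for the 15 on.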
